A study of Mus musculus with 6 samples.

Results

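Hox genes encode homeodomain transcription factors that lie in 4 clusters, named A to D, and fall into 13 paralogue groups by their place in the cluster. Their probe sets were taken from an array study of the outflow tract, the tube through which blood leaves the embryonic heart. A probe set belonged to the set when the platform annotation gave it a single gene with a Hox cluster symbol, however dim it was. The rule found 33 genes of the 18193 that probe sets of a single gene name, and 48 of the 45037 probe sets other than controls. The RefSeq table of assembly GRCm38.p6 holds 39 mouse Hox genes, and those without a probe set of their own by this rule were not analysed here.

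The tissue came from hearts of CD1 mouse embryos at embryonic day 10.5, in which the outflow tract was cut into a superior and an inferior subdomain. No mutant and no treatment is named in the labels. RNA from pools of tissue was measured on whole-genome mouse expression arrays made by Affymetrix, with 3 superior pools and 3 inferior pools, numbered 1, 6 and 7 in both regions. Pools are bulk tissue, so fewer cells of a type and less RNA per cell cannot be told apart. The sample labels give 6 littermate embryos to a pool, the design text 7 dissected pieces, and nothing says that pools with different numbers came from different litters. The p-values below therefore measure the spread between these pools, which may in part be technical.

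Along the body, genes at the group 1 end of a cluster are switched on earlier and further towards the head than genes at the group 13 end. Retinoic acid activates genes at the group 1 end, Cdx factors act on the middle of the clusters, and trithorax and polycomb proteins keep the genes on or off. Hox proteins bind DNA together with TALE homeodomain cofactors of the Pbx, Meis and Pknox families. Around the heart, Hox genes of the first groups are known from progenitors of the second heart field that add cells to the outflow tract, and from neural crest cells that enter it through the pharyngeal arches.

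Values are MAS5 signals, in arbitrary units, that the authors scaled so that a signal is relative to the rest of its array. Across the 6 arrays the median signal of a probe set ran from 13.9 to 17.6. As the background level served the highest signal, 8.0, of 27 probe sets for Bacillus transcripts that were not spiked into the samples. That signal came from superior 6, and the highest such control of each other array ran from 4.2 to 7.2. Between 58.4% and 63.1% of all probe sets lay above it on an array, and 51.9% did so on all 6. Signals depend on the probes of each probe set, so signals of different genes are set against background and not against each other. The words brighter and dimmer only tell apart the probe sets of 1 gene. In the superior 6 array the hybridisation controls were 1.59 times those of the median array, and the pool 1 arrays stood apart in RNA measures given below.

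Of the 48 Hox probe sets, 8 lay above background in all 6 arrays, against the 51.9% of all probe sets. These 8 belonged to 6 genes: Hoxa2, Hoxb2, Hoxa3, Hoxb3, Hoxb4 and Hoxa5. All came from paralogue groups 2 to 5 and from clusters A and B. Another 10 probe sets were above background in some arrays and 30 in none. Counted by gene, 6 genes had a probe set above background in every array, 5 reached it in 1 to 5 arrays and 22 in no array. Cluster A had 4 of 16 probe sets above background in every array and cluster B 4 of 11, while cluster C had 0 of 11 and cluster D 0 of 10. The array measures signal over background only, so a gene at background was not detected here and need not be silent.

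**Figure D1:**
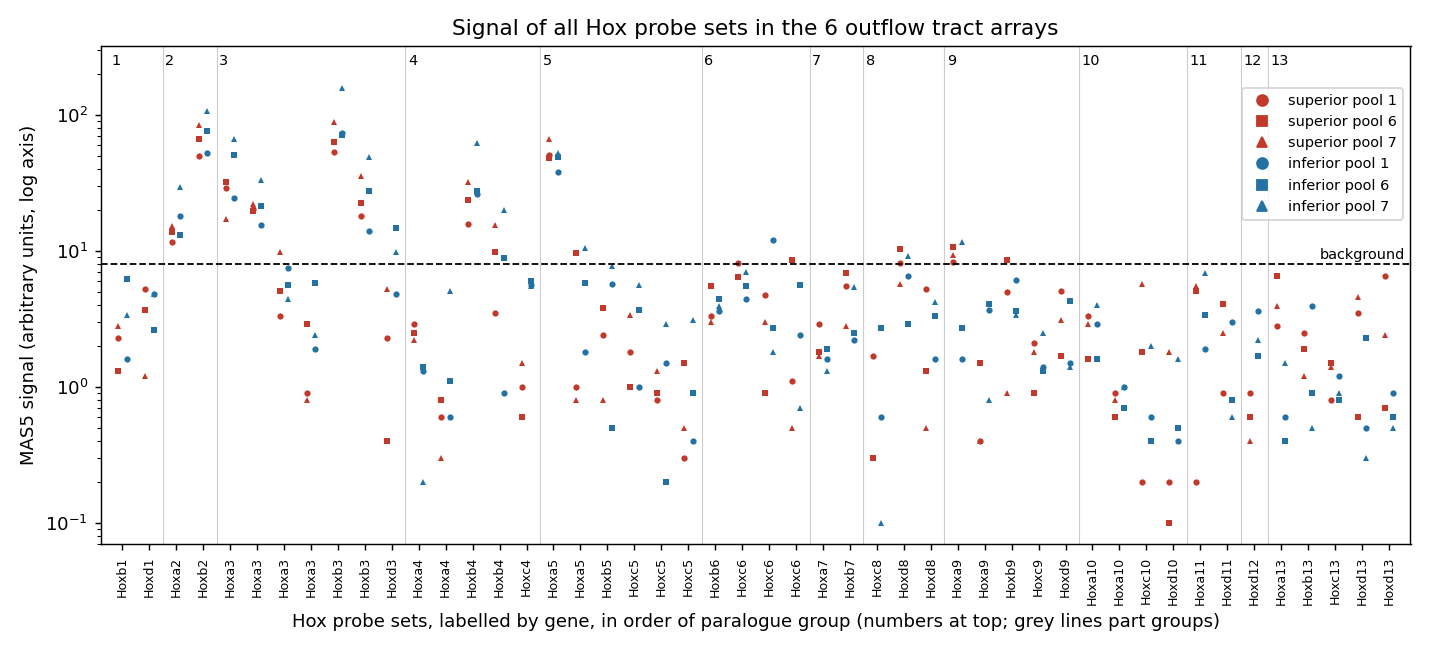
MAS5 signal (log axis, arbitrary units) of the 48 Hox probe sets in each of the 6 arrays, in order of paralogue group, with superior pools in red, inferior pools in blue and the background level of 8.0 dashed. The probe sets that lie above the line in every array all belong to groups 2 to 5, and the 12 probe sets of groups 10 to 13 lie below it throughout.

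Promoter sequences are shown for those of the 6 genes above background that the RefSeq promoter table (GRCm38.p6) holds, since these are the Hox genes whose signal the comparison of regions rests on. The table held Hoxa2, Hoxa3, Hoxa5 and Hoxb4. Each line gives the 250 bases before the gene start, 5′ to 3′ on the gene's strand. By the coordinates below, the start used for Hoxa3 lies upstream of that of Hoxa5 on the same strand. The Hoxa3 window thus lies beyond Hoxa5 and may not be the one nearest to the Hoxa3 coding sequence. Capitals mark matches on either strand to 5 short motifs: TGATNNAT, the site that Pbx and Hox proteins bind together; TGACAG, a Meis site; AGGTCA, the repeat unit bound by retinoic acid receptors; TTTATG, a Cdx site; and CCAAT, the CCAAT box.
Hoxa2, chr6:52164832-52165081, minus strand: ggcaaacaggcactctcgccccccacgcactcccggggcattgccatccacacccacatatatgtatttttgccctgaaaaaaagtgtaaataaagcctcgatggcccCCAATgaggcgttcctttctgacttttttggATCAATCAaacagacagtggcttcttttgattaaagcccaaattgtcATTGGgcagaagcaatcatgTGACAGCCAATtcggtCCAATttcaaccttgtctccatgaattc
Hoxa3, chr6:52213068-52213317, minus strand: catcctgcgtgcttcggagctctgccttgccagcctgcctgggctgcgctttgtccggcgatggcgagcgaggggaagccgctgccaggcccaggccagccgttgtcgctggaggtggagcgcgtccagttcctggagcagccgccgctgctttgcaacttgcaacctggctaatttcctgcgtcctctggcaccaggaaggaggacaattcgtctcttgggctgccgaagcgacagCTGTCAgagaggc
Hoxa5, chr6:52204588-52204837, minus strand: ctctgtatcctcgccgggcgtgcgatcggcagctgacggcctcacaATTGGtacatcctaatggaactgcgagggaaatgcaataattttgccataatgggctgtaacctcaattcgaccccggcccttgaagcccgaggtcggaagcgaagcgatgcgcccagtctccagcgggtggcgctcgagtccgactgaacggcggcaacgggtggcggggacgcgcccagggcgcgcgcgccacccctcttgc
Hoxb4, chr11:96318017-96318266, plus strand: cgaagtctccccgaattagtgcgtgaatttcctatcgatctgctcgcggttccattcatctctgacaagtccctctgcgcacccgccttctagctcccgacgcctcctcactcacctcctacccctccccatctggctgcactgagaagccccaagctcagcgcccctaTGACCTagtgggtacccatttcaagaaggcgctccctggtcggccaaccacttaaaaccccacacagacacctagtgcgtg

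The Hoxa2 window held 1 match to TGATNNAT, 111 bases before the gene start, 1 match to TGACAG and 4 CCAAT boxes. There the match to TGACAG runs straight into a CCAAT box, so that both appear as 1 run of capitals. The Hoxa3 window held 1 match to TGACAG, the Hoxa5 window 1 CCAAT box, and the Hoxb4 window 1 match to AGGTCA, 81 bases before the start. Among all 32851 windows of this length, 7.68% held TGATNNAT, 15.9% TGACAG, 14.0% AGGTCA, 10.8% TTTATG and 33.8% CCAAT. Among the 24 Hox windows in the table these counts were 4, 2, 6, 5 and 14. Matches are letters in a window and no evidence of binding.

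The group 1 genes analysed were at background. Hoxb1, a factor of the hindbrain and of second heart field progenitors, had signals of 2.3, 1.3 and 2.8 in superior pools 1, 6 and 7 and of 1.6, 6.2 and 3.4 in the inferior pools. Hoxd1 ran from 1.2 to 5.2 over the 6 arrays. Both probe sets were thus below 8.0 throughout. Against the highest control of the same array, Hoxb1 was above it in inferior 6 alone (4.3). Hoxd1 was above it in superior 1, with 5.2 against 5.0, and in inferior 7, with 4.8 against 4.2.

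Both genes of group 2 were above background in every array. Hoxb2, a patterning factor of the hindbrain, had signals of 49.8, 65.9 and 84.0 in superior pools 1, 6 and 7 and of 52.4, 75.3 and 105.8 in the inferior pools of the same numbers. The inferior pool was the higher one for each number, but the regions overlapped across numbers. The mean was 66.6 ± 17.1 (SD, n = 3) in superior and 77.8 ± 26.8 in inferior pools, and the log2 difference, superior minus inferior as throughout, was -0.19 ± 0.13 (SE of the paired fit). This did not pass limma's test, with an adjusted p of 1.00 without pairing and 0.626 with the pool number as a block. Hoxa2, the gene that sets the identity of the second pharyngeal arch, had signals of 11.6, 13.8 and 15.3 in superior and 18.1, 13 and 29.5 in inferior pools. The inferior 7 array stood out, and in pool 6 the superior value was slightly higher. The log2 difference of Hoxa2 was -0.43 ± 0.24 (adjusted p = 0.543 in the paired fit).

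In group 3, Hoxa3 and Hoxb3 were above background on 2 probe sets each. Hoxa3 is needed for the thymus, the parathyroid glands and the third arch artery. On its probe set 1427433_s_at it had signals of 29.1, 31.8 and 17.1 in superior and of 24.3, 50.8 and 65.9 in inferior pools. Inferior pools were higher for numbers 6 and 7 and lower for number 1, with within-pool log2 differences of 0.23, -0.63 and -1.77 in pools 1, 6 and 7. The log2 difference was -0.72 ± 0.34, and its adjusted p was 0.486 in the paired fit and 1.00 without pairing. It moved to -0.20 without pool 7, to -0.44 without inferior 7 and to -1.20 without pool 1. The other probe set, 1452421_at, gave 20.2, 19.7 and 22.2 in superior and 15.5, 21.2 and 33.1 in inferior pools. There the log2 difference was -0.09 ± 0.22, so the 2 probe sets of Hoxa3 pointed the same way on average but differed in size. That of 1452421_at changed sign, to 0.12 without pool 7 and to 0.16 without inferior 7. The remaining probe sets of Hoxa3, 1431392_at and 1429398_at, stayed below 10, with 1 array and 0 arrays above background.

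Hoxb3, which acts with Hoxa3 in the neck and pharynx, had signals of 53.6, 62.7 and 88.7 in superior and of 73.3, 70.6 and 157.3 in inferior pools on its probe set 1456229_at. Each inferior pool was above the superior pool of its number, with within-pool log2 differences of -0.43, -0.16 and -0.80. Superior pools had a mean of 68.3 ± 18.2 and inferior pools one of 100.4 ± 49.3. The fold on the log2 scale was 1.38 (log2 -0.47 ± 0.15). The unadjusted p was 0.0134 and the adjusted p 0.370 in the paired fit, the lowest adjusted p of the Hox probe sets that passed the filter on dim probe sets in that fit. The dimmer probe set 1427605_at gave 18.1, 22.4 and 35.5 in superior and 14.0, 27.4 and 48.5 in inferior pools, with a log2 difference of -0.12 ± 0.20 and the opposite sign in pool 1. Hoxd3, the third gene of this group, stayed at 0.4 to 5.2 in superior pools and had 4.8, 14.6 and 9.8 in inferior pools 1, 6 and 7. Its probe set was above background in 2 inferior arrays and no superior array. It was too dim for the main test, and without the filter on dim probe sets its adjusted p was 0.673 in the paired fit.

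In group 4, only Hoxb4 rose above background in every array. Hoxb4, known for axial patterning and for its effect on blood stem cells, had signals of 15.7, 23.8 and 32.2 in superior and of 26.3, 27.5 and 61.7 in inferior pools on its probe set 1460379_at. The inferior pool was the higher one in each of the 3 numbers, though inferior pools 1 and 6 lay below superior pool 7. Means were 23.9 ± 8.25 in superior and 38.5 ± 20.1 in inferior pools, and the fold was 1.48 (log2 -0.57 ± 0.19), with an unadjusted p of 0.0163 and an adjusted p of 0.378 in the paired fit. The dimmer Hoxb4 probe set 1451761_at was above background in 4 arrays and pointed the other way in pools 1 and 6, with within-pool log2 differences of 0.71, 0.10 and -0.31. Hoxa4 was below background on both of its probe sets, with a highest signal of 5.1. Hoxc4 had 1.0, 0.6 and 1.5 in superior and 5.6, 6.0 and 5.5 in inferior pools. Its regions did not overlap, but all 6 values lay below background, so this order carries no measured level.

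Group 5 had 1 probe set above background in every array. Hoxa5, a gene of the lung and of the neck and upper trunk skeleton, had signals of 50.9, 48.4 and 66.1 in superior and of 37.8, 48.9 and 52.1 in inferior pools on its probe set 1443803_x_at. It was the 1 probe set of the 8 with the higher mean in superior pools, 55.1 ± 9.58 against 46.3 ± 7.50, and its log2 difference was 0.24 ± 0.15 (adjusted p = 0.601 in the paired fit). In pool 6 its values were nearly equal. The other Hoxa5 probe set, 1448926_at, was above background in 2 arrays, superior 6 with 9.6 and inferior 7 with 10.5, and at 5.8 or below in the other arrays. The 2 probe sets thus disagree on whether Hoxa5 was measured throughout, and the manufacturer's suffix x of the brighter one marks probes that may bind other sequences too. Hoxb5, next to Hoxb4 in its cluster, stayed at 7.7 or below, and the 3 probe sets of Hoxc5 at 5.6 or below.

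**Figure D2:**
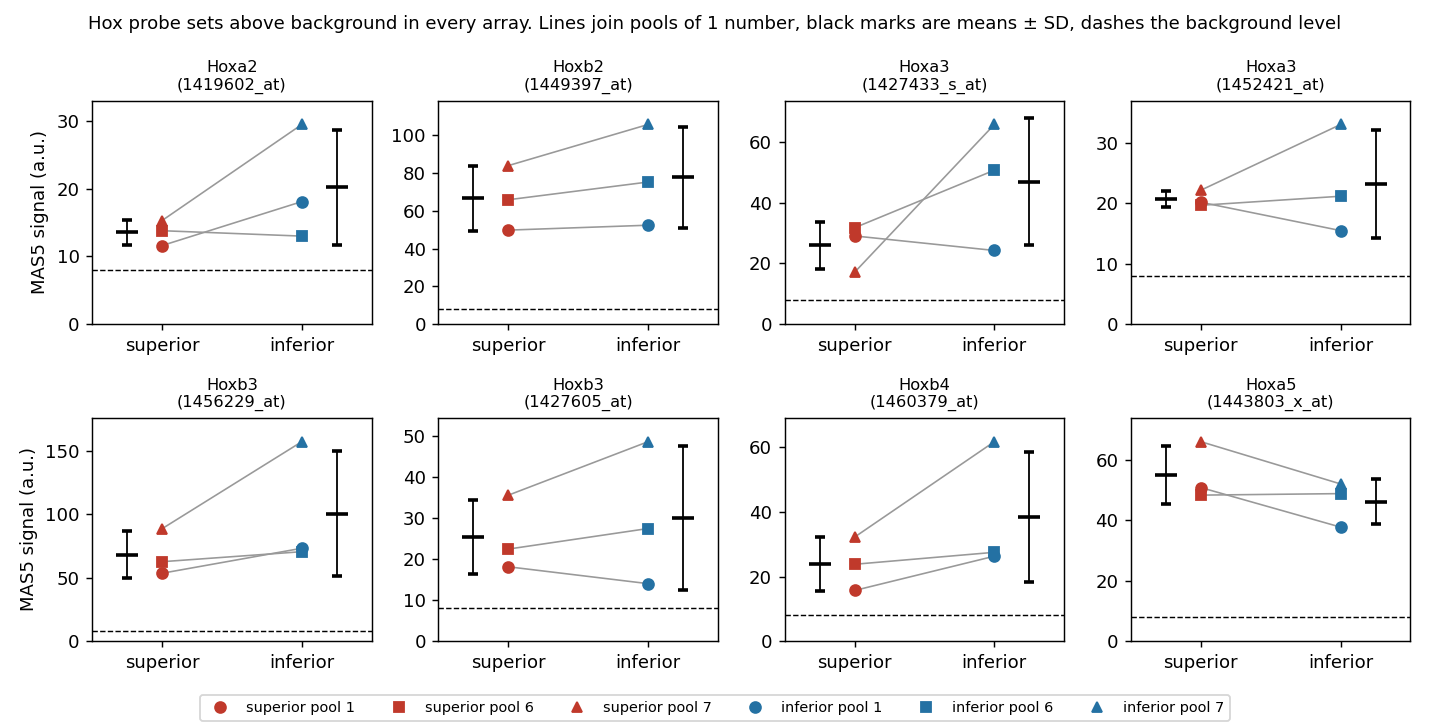
MAS5 signal of the 8 Hox probe sets above background in every array, by region; lines join superior and inferior pools of the same number and black marks give the mean ± SD of 3 pools. The inferior 7 array is the highest in every panel but that of Hoxa5, and in no panel are the regions apart.

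From group 6 on, 0 of 26 probe sets were above background in every array. No signal of groups 6 to 13 exceeded 12.1, the value of Hoxc6 in the inferior 1 array, while another Hoxc6 probe set had its highest value of 8.5 in superior 6. Hoxa9, a gene of posterior identity and of blood progenitors, was above background in more arrays than any other gene of these groups, on its probe set 1421579_at, with 8.3, 10.7 and 9.3 in superior and 1.6, 2.7 and 11.6 in inferior pools. That probe set was above background in 3 superior arrays and 1 inferior array, whereas the other Hoxa9 probe set was at 4.1 or below. Hoxd8 was above background in 3 arrays, with a highest value of 10.3, and Hoxb9 in 1 array. The 12 probe sets of groups 10 to 13, which pattern limbs, hindgut and urogenital tract, had a highest signal of 6.9. Nearest to the limit among the 8 probe sets above background in every array was that of Hoxa2, with a lowest signal of 11.6. Just outside were the dimmer Hoxb4 probe set and this Hoxa9 probe set, each above background in 4 arrays, with lowest signals of 0.9 and 1.6.

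Tested across the whole array, no difference between the regions in a Hox gene passed the threshold over the spread of the pools. All 8 probe sets above background, and no other Hox probe set, passed the filter on dim probe sets, so the counts below are for these 8 and not for the family. Without pairing, limma called 0 of the 8 at an adjusted p below 0.05, and 0% of all 22518 probe sets tested. The count at an unadjusted p below 0.05 was 0 of 8 Hox probe sets and 792 (3.52%) of all. With the pool number as a block it called 0 of the 8, against 0.16% of all probe sets, and at an unadjusted p below 0.05 it passed 2 of the 8, Hoxb3 and Hoxb4, against 11% of all. With all probe sets tested, dim ones included, 0 of 48 Hox probe sets were called without pairing (0% of all) and 0 with it (0.00222% of all). Those at an unadjusted p below 0.05 numbered 4 of 48 without pairing, beside 3.65% of all, and 7 of 48 with it, beside 7.15% of all. The 4 were Hoxd3, Hoxc4, Hoxd12 and Hoxa13, of which Hoxd3 alone reached background in any array.

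The mean log2 difference was below 0 for 7 of the 8 probe sets, as for 55.1% of all probe sets tested. In 3 of the 8 the superior pool was the lower one in each number (19% of all), and in 0 of the 8 it was the higher one throughout (15% of all). These were Hoxb2, the brighter Hoxb3 and the brighter Hoxb4 probe sets, which belong to 3 adjoining genes of cluster B. The regions were apart, with all superior values below all inferior values, in 0 of 8 (4.56% of all), and in 0 of 8 the other way round (4.65%). The median log2 difference of the 8 was -0.31, and it was 0.08, -0.17 and -0.66 in pools 1, 6 and 7. Over all 48 Hox probe sets, most of them at background, it was -0.08. Over the 23388 probe sets above background in every array these medians were -0.02 overall and -0.01, -0.03 and -0.02 by pool. Probe sets of 1 gene share their target, so the 8 are not 8 independent genes.

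**Figure D3:**
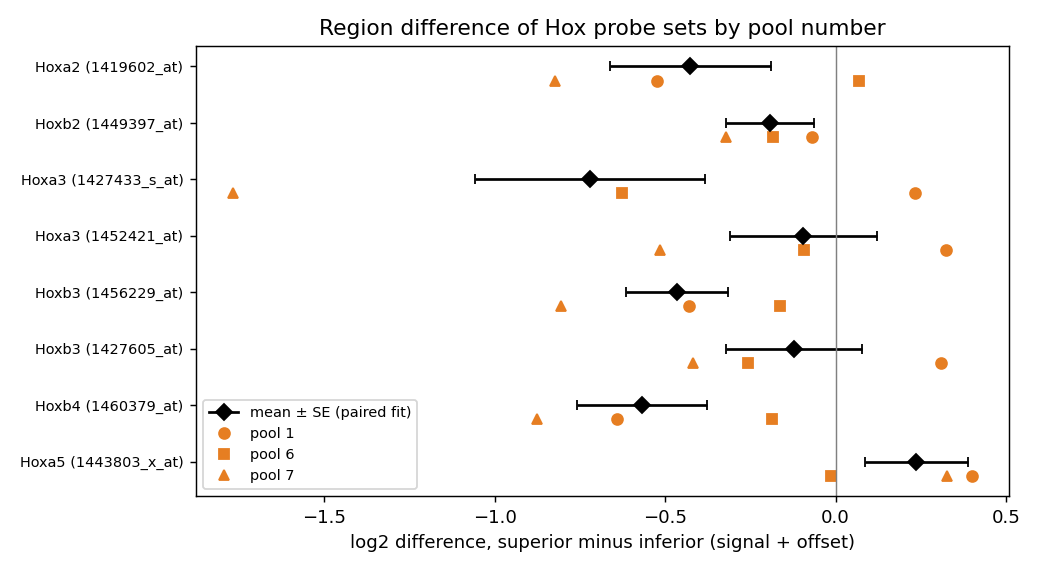
Log2 difference, superior minus inferior, of the 8 Hox probe sets above background in every array: black diamonds give the mean with the SE of the paired fit and orange symbols the difference in each pool. The values in pool 7 run from -1.77 to 0.33 and 7 of the 8 lie left of zero, whereas those in pool 1 lie on both sides.

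These values rested in part on the inferior 7 array. It had the highest of the 6 signals in 7 of the 8 probe sets, against 20.4% of all probe sets tested. Its signal was 2.35 times the median of the other arrays for Hoxb4, 2.23 times for the brighter Hoxb3 probe set, 2.14 times for Hoxa2 and 1.61 times for Hoxb2, and 1.07 times for Hoxa5. In log2 units the median of the 8 probe sets in inferior 7 lay 0.80 above their mean over all arrays, where the same median over all probe sets above background was 0.03. Without the inferior 7 array, 4 of the 8 log2 differences were below 0 and 4 above, and the median was -0.026. Hoxb4 then had -0.20, the brighter Hoxb3 probe set -0.10 and Hoxb2 0.049. As superior 7 was kept there, differences between pools also entered these values. With both pool 7 arrays left out, Hoxb4 had -0.41, the brighter Hoxb3 probe set -0.30 and Hoxb2 -0.13. In that setting 5 of the 8 were below 0 and the median was -0.16.

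Pools also differed from each other within a region. For 7 of the 8 probe sets, pool 7 was above pool 1 in both regions, against 37.5% of all probe sets tested, and for 7 of the 8 the lowest signal was that of a pool 1 array, against 36.2%. The exception to the first was Hoxa3 on 1427433_s_at, whose superior 7 value of 17.1 was its lowest. Hoxb2, for example, had 49.8 and 52.4 in the pool 1 arrays and 84.0 and 105.8 in the pool 7 arrays, a wider step than that between regions. The pool 1 arrays also stood apart in RNA measures. Their ratio of 3′ to 5′ signal for beta-actin was 2.23 and 2.26, against 1.45 to 1.87 in the others, and their 18S ribosomal RNA signal at the 3′ end was 98.0 and 86.4, against 377.8 to 533.0. The part of these measures in the low pool 1 values was not tested.

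Some markers of tissues near the outflow tract were also high in the inferior 7 array. Of the 8 listed genes of paraxial and limb mesoderm, all had a probe set, and their summed signal was 259.8 in inferior 7, against 73.8 to 132.6 in superior pools and 72.2 and 98.1 in the other inferior pools. Myf5, a determinant of skeletal muscle, had 29.5 in inferior 7 and 13.5 in superior 7, and 1.7 to 4.3 elsewhere. Lbx1, a factor of migrating muscle precursors, had 29.5 in inferior 7 and at most 11.1 elsewhere. Both genes were too dim for the main test. Most of the sum came from Tcf15, Tbx4 and Pax3, with 80.5, 46.7 and 45.8 in inferior 7 and at most 45.6, 39.2 and 26.8 elsewhere. Tbx6 had 7.4 in inferior 7 and 11.4 in superior 6. Pax1, a marker of the sclerotome and the pharyngeal pouches, stayed below background in every array, with its highest value, 7.6, in inferior 7. The 8 markers of pharyngeal endoderm and epithelium summed to 1421.2 in inferior 7, to 1133.6 to 1322.0 in superior pools and to 1064.4 and 939.1 in inferior 1 and 6. Most of this sum came from the keratins Krt8 and Krt18, with 740.4 and 559.9 in inferior 7 and 734 and 535.7 in superior 7. The adhesion molecules Epcam and Cdh1 were higher in inferior 7, with 67.0 and 46.7, than in the other arrays, with at most 27.0 and 30. The defining genes of endoderm were not high in that array. Shh, a ligand made by endoderm, had 8.8, 8.8 and 9.9 in superior and 6, 3.1 and 3 in inferior pools, and Foxa2 had 0.4 in inferior 7. Foxa2 and Nkx2-1 were above background in superior 6 alone, and Pax9 in no array. The part of these tissues in the Hox values of inferior 7 was not tested.

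Neural tube markers, in a tissue where Hox genes are active, summed to 35.7 to 42.6 in superior and 47.7 to 55.7 in inferior pools, with the highest value in inferior 7. Among them Pax6 had 24.7 in inferior 7 and 9.2 to 19.3 elsewhere, whereas Elavl3, a gene of neurons, had 28.6, 26.8 and 22.4 in inferior pools, with the lowest of these in inferior 7, and 14.6 to 16.6 in superior pools. The genes Sox1, Neurog2, Olig2 and Neurod1, 4 of the 6 with a probe set, were below background in every array. Neural crest markers summed to 480.1 to 724.4 in superior and 669.2 to 944.4 in inferior pools, with the lowest inferior value in inferior 7. Most of this sum came from Erbb3 and Ednrb, with 412.8 and 137.9 in inferior 7, the lowest inferior value of each. Tfap2a was highest in inferior 7, at 57.5 against at most 42.9 elsewhere, and Ngfr had 37.2 there and at most 36.8 elsewhere. Sox10 had 15.9 in inferior 7, between the other inferior values of 12.1 and 19.6. Foxd3 and Tfap2b, 2 of these 7 genes, were at background. Heart muscle markers were above background in 8 of 8 cases, with sums of 31758.2 to 39074.2 in superior and 28776.6 to 29214.7 in inferior pools. They show heart tissue and do not check the outflow tract or the region named in the labels. Epicardial markers summed to 885.8 to 1631.3 in superior and 455.5 to 752.1 in inferior pools, with the lowest value in inferior 7. Endocardial markers were above background in 7 of 7 cases, from 1519.6 to 2050.8 in all arrays. Red blood cell markers summed to 12409.6 to 22471.8, and liver bud markers to 257.2 to 1661.5, both highest in superior 6. Most of the liver bud sum in superior 6 came from Afp and Ttr, with 828.8 and 570.4. Hhex and Prox1, with 97.1 and 63.6 in superior 6, were not highest there, and Alb was below background in every array.

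**Figure D4:**
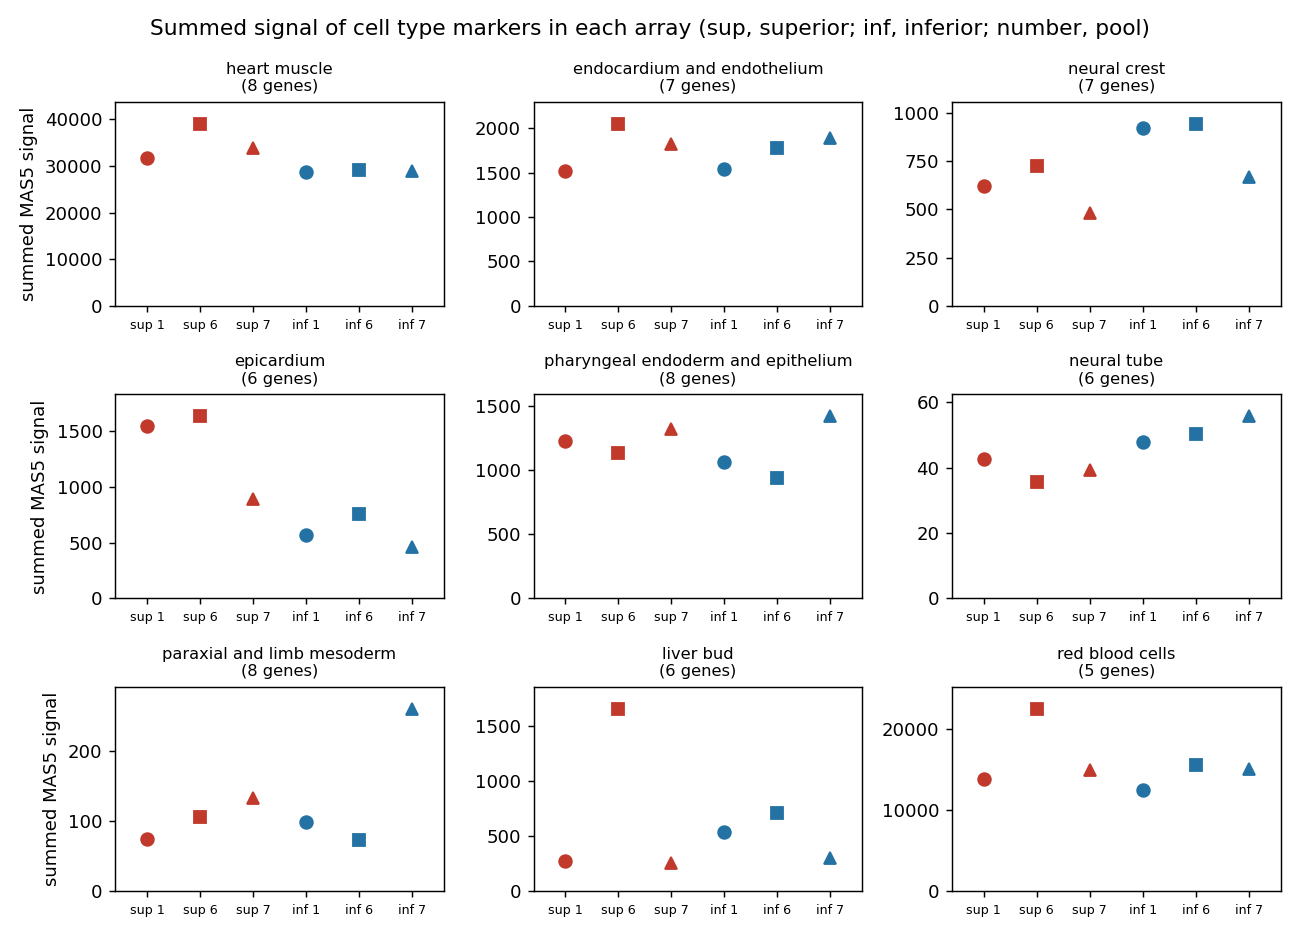
Summed MAS5 signal (arbitrary units, axes from 0) of the markers of 9 tissues in each of the 6 arrays, superior pools in red and inferior pools in blue. The sum for paraxial and limb mesoderm is 259.8 in inferior 7 and at most 132.6 in the other arrays, while epicardial markers are lowest in inferior 7.

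Most cofactors of Hox proteins were above background in both regions. Of 9 listed TALE genes 8 had a probe set and 7 were above background in every array, with Pbx4 the exception. Among the 7 tested, 3 had the higher mean in superior and 4 in inferior pools. The median log2 difference was -0.11, and 0 were called with or without pairing. Pknox1 had 105.3, 89.8 and 78.4 in superior and 131.7, 110.3 and 103.6 in inferior pools, lower in superior for each number (log2 -0.33 ± 0.11, adjusted p = 0.380 in the paired fit). Meis2 differed by -0.18 ± 0.09, Pknox2 by -0.30 ± 0.16 and Pbx3 by 0.16 ± 0.09. The summed signal of the 8 genes was highest in inferior 7, at 3027, against 2403.7 to 2776.2 in the other arrays. Most of it came from Pbx2 and Pbx3, with 893.9 and 982.9 in inferior 7 and 808.5 and 970.5 in superior 7. Of these genes Pknox1 and Pknox2 alone were not highest in inferior 7. That array also had the highest median signal of all probe sets, 17.6 against 13.9 to 16.1.

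The retinoic acid list, whose signal switches on Hox genes of the first groups, had 13 genes with a probe set, all above background in every array. Of 12 tested, 2 were higher and 10 lower in superior pools (median log2 -0.12), 0 were called without pairing and 1 with it. That 1 was Aldh1a2, the enzyme that makes retinoic acid in the early embryo, with 100.2, 140.6 and 48.2 in superior and 28.0, 37.3 and 23.5 in inferior pools. It is also on the epicardial list. In the paired fit 4 of the 6 genes of that list were called higher in superior pools, against 0.16% of all probe sets called in either direction. Without pairing, 0 of the 6 were called. Aldh1a2 was higher in superior for each number (log2 1.5 ± 0.19, adjusted p = 0.0411 in the paired fit), the opposite direction to 7 of the 8 Hox probe sets. Rarb, a receptor that is itself a target of the signal, differed by -0.28 ± 0.11 (adjusted p = 0.417 in the paired fit). Crabp2, a binding protein for retinoic acid, had 384.6 in inferior 7 and 82.9 to 155.2 in the other arrays (log2 -0.52 ± 0.22, adjusted p = 0.450), and Rxrb 277.5 in inferior 7 and 113.4 to 166.7 in the others.

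Of the regulators that act on Hox clusters, Cdx1, Cdx2 and Cdx4 were below background in every array. Egr2, the activator of group 2 genes in the hindbrain, was above it in 2 arrays and Gdf11, a ligand of the trunk to tail transition, in 3. The 11 tested genes of this list, which are chromatin proteins of the trithorax and polycomb type and Ctcf, had a median log2 difference of 0.02, 9 higher and 2 lower, and 0 were called in either fit. Bmi1, a polycomb subunit, differed by 0.11 ± 0.10 and Ctcf, which sets the borders of chromatin domains, by 0.09 ± 0.09. Genes next to the clusters were mixed. Evx1, at the group 13 end of cluster A, was below background throughout, and Evx2, at that end of cluster D, was above it in 1 array. Skap2, Snx10, Smug1, Cbx5, Mtx2 and Lnpk were above it in all 6. Of these 6 tested, 3 were higher and 3 lower and 0 were called, with Cbx5 at 0.15 ± 0.09, Mtx2 at 0.14 ± 0.08 and Snx10 at -0.16 ± 0.10. Among 9 related homeobox genes, Meox1, a factor of somites, was the 1 above background, with 326.4, 408.4 and 220.4 in superior and 470.9, 546.7 and 312.8 in inferior pools (log2 -0.48 ± 0.09, adjusted p = 0.122 in the paired fit).

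Of the second heart field list, 9 genes were tested, 2 higher and 7 lower in superior pools (median log2 -0.05), and 0 were called. Fgf8 differed by -1.03 ± 0.17 (adjusted p = 0.0932 in the paired fit) and Isl1 by -0.31 ± 0.08 (adjusted p = 0.293). The cardiac factor Nkx2-5 differed by -0.31 ± 0.09 and Tbx1, a factor of pharyngeal mesoderm, by -0.55 ± 0.23. Fgf8, the ligand that sustains these progenitors, had 44.3, 23.4 and 57.2 in inferior pools, and Isl1, their defining factor, 917.3, 819.2 and 1278.9. Both were highest in inferior 7, as were Tbx1 with 71.1, Eya1 with 67.5, Foxf1, Tbx5 and the dim Osr1, against 20.4% of all probe sets tested. Mef2c was highest in superior 7, the dim Fgf10 in superior 6 and Nkx2-5 in inferior 1. Gata4 had its lowest value, 558.8, in inferior 7. In pools 1 and 6, where inferior 7 plays no part, Fgf8 had 17.9 and 11.5 in superior tissue against the 44.3 and 23.4 above.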

How the data were processed

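Superior and inferior outflow tract pools were compared on 6 arrays. Deposited were intensity values on a linear scale, which the authors obtained by MAS5 according to the submitters' processing notes. Its version is not stated there. MAS5 combines perfect-match and mismatch probes into 1 signal per probe set, which makes dim values noisy. Probe sets were named from the platform annotation. RefSeq gene IDs changed 0 of the Hox symbols. Signals were turned into log2(signal + 3.2), 3.2 being their 25th percentile, and fold changes on this scale understate those of dim genes. Probe sets whose mean lay above the median, a signal of about 15.1, were tested in R 4.3.3 by limma 3.58.1, whose eBayes step used a mean-variance trend and the robust option. Adjusted p-values are Benjamini-Hochberg values over all 22518, or over all 45037 where the filter was left out.

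The planned fit had no term for the pool number. Same-numbered arrays deviated together from their region means (r = 0.79, 0.43 and 0.51 for pools 1, 6 and 7, above the limit of 0.1). Of differently numbered arrays, superior 7 with inferior 6 (r = 0.20) and superior 6 with inferior 7 (r = 0.18) also passed that limit, and pairs with a pool 1 array were below 0. As every same-numbered pair passed, a paired fit, blocking on that number, stands beside it. The labels give the numbers but not their meaning. By rule, values in all arrays are given for genes with a probe set above background in every array, other genes by range, and from the other lists at most 4 genes with the smallest p in the paired fit. Hoxb1, Hoxd3, Hoxc4 and Hoxa9, the other Hoxb4 probe set, markers, and list genes named for inferior 7 or for their background status were described further after their values were seen. Members and lists were chosen with earlier results of these data known. The fits were tested on simulated data. Array number limits the precision.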

Additional observations from a re-analysis of the deposited data

Results flagged for a closer look

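Outside the rule for Hox genes lay 8 further probe sets, 3 that name several Hox genes and 5 for antisense or noncoding transcripts of the clusters, and 2 of them rose above the background level of 8.0. A probe set shared by Hoxd4 and Hoxd3 reached 24.6 in inferior 6 and 16.3 in inferior 7, while inferior 1 and the superior pools had 2.2 and at most 5.3. The probe set that names Hoxd3 alone was above background in the same 2 arrays. Another probe set shared by Hoxd4 and Hoxd3 stayed at 0.8 or below in every array. The antisense transcript Hoxd3os1 reached 8.3 in superior 6 on 1 probe set, just over background, and at most 1.4 in the other arrays.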

How the results depend on the processing

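The count of 8 Hox probe sets above background in every array stayed at 8 when each array in turn was left out or judged by its own controls, and was 9 against the 95th percentile of the control signals. It was 4 at a level of 2 times the highest control, and 18 probe sets were above background in at least 1 array. Calls among Hox probe sets were 0 in all alternatives that tested any, and the top 25% by signal tested none. Over all probe sets, the unpaired count of 0 became 36 with the replicate block, 1 with the block and no filter, and 9 to 231 with the block and a pool left out (116 without pool 7); the other unpaired alternatives gave 0. The median log2 difference of the 8 ran from -0.49 to -0.026 when pools or arrays were left out, lowest without inferior 1 and nearest to 0 without inferior 7. It was -0.08 over all 48 Hox probe sets and -0.45 with 1 probe set per gene.

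The sign of a single difference changed in 8 of 160 recomputed values, all from leaving out arrays. Without inferior 7 these were Hoxb2 at 0.049, the dimmer Hoxa3 probe set at 0.16 and the dimmer Hoxb3 probe set at 0.27. Without pool 7 the last 2 were at 0.12 and 0.026 with or without the block, and without superior 1 the dimmer Hoxb3 probe set was at 0.066. Over all settings that left out an array or pool, Hoxb2 ran from -0.44 to 0.049, the dimmer Hoxa3 probe set from -0.32 to 0.16 and the dimmer Hoxb3 probe set from -0.53 to 0.27. None of these was called in any fit.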
